A study of Homo sapiens with 16 samples.

Results

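Gene expression in untreated LP-1-cIAP2-eGFP cells was compared with that in untreated control (LP-1-eGFP) cells. Every array labelled as untreated was taken, which gave 4 arrays of each line and 8 of the 16 arrays in the series. LP-1 was grown from the malignant plasma cells of human multiple myeloma, and this line belongs to the TRAF3 deleted or mutated lines of the study. Both lines were made by lentiviral transduction with a pIRES2 plasmid, which carried cIAP2 and eGFP in the one and eGFP alone in the other, and both were sorted for eGFP. No agent was added to these cells, and RNA was taken at 6 h and at 24 h from 2 biological replicates of each line. Each line is a single transduced and sorted population. A difference caused by cIAP2 and a difference between these particular populations cannot be told apart here. The other 8 arrays of the series, from the same lines with 10 nM bortezomib, are used only to see how the same genes stood on arrays that took no part in the comparison.

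The RNA was hybridized in a single colour to Agilent arrays with 50599 gene probes. On the 8 arrays the median of the log2 signals ran from 5.89 to 6.61, and 56.4% to 71.1% of the gene spots counted as well above background in the scanner software's own test. Values below are normalized log2 signals, in which a difference of 1 is 2-fold, and differences are LP-1-cIAP2-eGFP minus control. Standard errors (SE) and p-values are from limma, with time as a covariate and adjustment by the Benjamini-Hochberg method over all probes tested. A probe is called when its adjusted p is under 0.05 and the difference is more than 2-fold. Signals of different probes depend on the probe and are not compared with each other. Where 1 line had no array on which a gene stood well above background, the fold is a bound against the dimmest detectable signal and is written as at least N-fold. Where only some arrays of a line detected a gene, its difference is printed but the size is not exact.

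The overexpressed protein, cIAP2, is a ubiquitin ligase of the inhibitor of apoptosis family and is encoded by BIRC3. Together with cIAP1, TRAF2 and TRAF3 it forms the complex that marks the kinase NIK (MAP3K14) for degradation and so restrains the non-canonical NF-κB pathway, while downstream of TNF receptors it takes part in the activation of the canonical pathway. NF-κB dimers bind κB sites in the promoters of immune, survival and feedback genes, BIRC3 itself among them. NF-κB is commonly active in multiple myeloma, where mutations of its regulators, TRAF3 included, are recurrent. MHC class II genes are switched on by the co-activator CIITA, which acts through the X and Y boxes of their promoters, and CIITA is normally silenced when B cells become plasma cells. Interferon-stimulated genes use other elements, the interferon-stimulated response element (ISRE) and the interferon-gamma activated sequence (GAS).

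Sequences of 6 promoters are shown because their genes are called members of the groups that were lower in LP-1-cIAP2-eGFP and because each carries the letters by which its group is known. They are RefSeq sequences of GRCh38.p14, written 5′ to 3′ on the gene's strand, and capitals mark the motif letters. HLA-DRB5 (chr6:32530361-32530422, minus strand) and HLA-DOA (chr6:33009642-33009704, minus strand) hold AGNAAC, letters of the X box, followed by TGATTGG, letters of the Y box. Their stretches begin 135 and 113 bases before the start of the gene.
HLA-DRB5: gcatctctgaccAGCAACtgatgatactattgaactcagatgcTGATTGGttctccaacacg
HLA-DOA: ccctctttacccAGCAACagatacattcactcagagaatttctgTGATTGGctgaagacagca
BIRC3 (chr11:102317273-102317370, plus strand, from 211 bases before the start) holds 2 matches to the κB consensus, both of them on the opposite strand.
BIRC3: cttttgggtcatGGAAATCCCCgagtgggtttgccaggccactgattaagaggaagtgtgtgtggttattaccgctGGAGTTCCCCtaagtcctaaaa
IRF1 (chr5:132490802-132490909, minus strand, from 136 bases before the start) holds a GAS match, TTCNNNGAA, and then a κB match.
IRF1: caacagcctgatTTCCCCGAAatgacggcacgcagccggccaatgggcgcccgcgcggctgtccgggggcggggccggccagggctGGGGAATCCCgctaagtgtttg
ISG15 (chr1:1013372-1013411, plus strand, from 125 bases before the start) holds 2 overlapping ISRE matches, GAAANNGAAA, and IFITM1 (chr11:313988-314055, plus strand, from 52 bases before the start) holds 2 that are apart.
ISG15: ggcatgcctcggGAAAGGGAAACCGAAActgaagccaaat
IFITM1: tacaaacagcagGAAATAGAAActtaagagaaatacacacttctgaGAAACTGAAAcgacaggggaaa

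The lines differed clearly in untreated cells, and more genes were lower than higher in LP-1-cIAP2-eGFP. Of 33150 probes tested, 1500 were called, or 4.52%, with 408 higher and 1092 lower. When each gene was represented by its brightest tested probe, 261 of 16220 genes were higher, or 1.61%, and 655 were lower, or 4.04%. The median difference was 1.45 over the higher probes and -1.62 over the lower ones, while the median over all genes was 0.015. More than 4-fold differences were found for 467 probes, 98 higher and 369 lower. Of the 1500 called probes, 883 were well above background on all 8 arrays. No control array detected 51 of the higher probes, and no LP-1-cIAP2-eGFP array detected 190 of the lower ones. The medians and the 4-fold counts therefore include sizes that are not exact. At each time point, all arrays of one line lay beyond all arrays of the other for 1444 of the 1500 probes. The calling rule favours such separation and the share over all probes is not given, so this count is a description. Of the called probes, 328 carried no gene symbol and are counted here only.

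**Figure D1:**
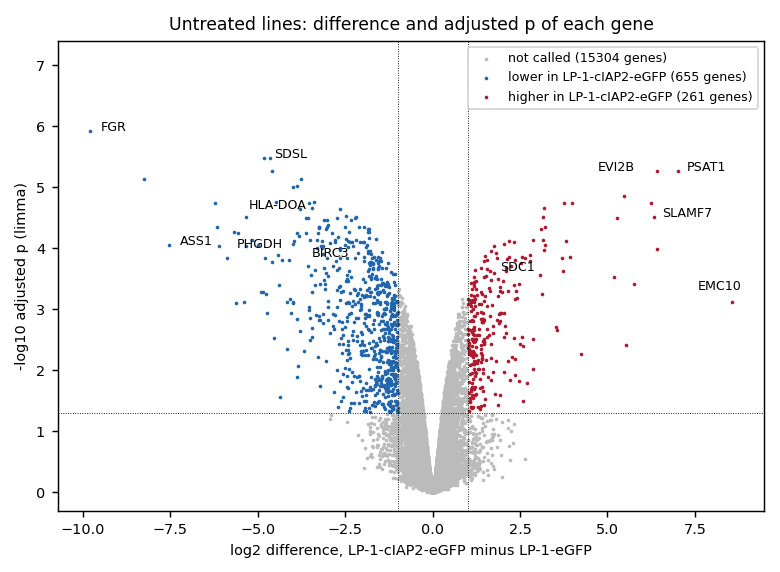
Each point is a gene, with the log2 difference between untreated LP-1-cIAP2-eGFP and control cells on the x axis and the -log10 adjusted p from limma on the y axis (dotted lines, 2-fold and an adjusted p of 0.05). The 655 lower genes (blue) outnumber the 261 higher genes (red), and FGR and EMC10 lie at the far ends.

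The first principal component held 38.9% of the variance and put the 4 LP-1-cIAP2-eGFP arrays on one side and the 4 control arrays on the other. Correlations across probes were between 0.9765 and 0.9887 for 2 arrays of the same line and between 0.9629 and 0.9748 for arrays of different lines. The arrays came from 2 slides. Slide 1 held replicate 1 of LP-1-cIAP2-eGFP at both times and control replicate 2 at 6 h, and slide 2 held the other 5. With the slide as a block, 1278 of the 1500 probes were called again and all 1500 kept their direction. Slide 2 alone, with 5 arrays, called 118 of them and gave the same direction for 1500. The single pair of 6 h arrays on slide 1 gave the same direction for 1482. All of these arrays took part in the calls, so agreement in direction is largely built in.

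BIRC3 was examined first, as the overexpressed gene. According to the study's methods its probe lies in the 3′ untranslated part and sees the endogenous transcript alone, so its signal does not check the plasmid. In LP-1-cIAP2-eGFP the signals were 12.33 and 12.54 at 6 h and 12.32 and 12.47 at 24 h, and in the control 13.98 and 14.07 at 6 h and 13.95 and 13.96 at 24 h. The arrays of the lines did not overlap, and the times hardly differed. Endogenous BIRC3 differed by -1.57 (SE 0.0849, adjusted p = 0.000141), that is, 2.97-fold lower in LP-1-cIAP2-eGFP. The difference was -1.74 between the 6 h arrays of slide 1 and -1.47 within slide 2, where it did not pass with 5 arrays. Below, array values are given in the same order: 6 h replicates 1 and 2, then 24 h replicates 1 and 2.

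MHC class II genes were lower in LP-1-cIAP2-eGFP almost throughout. All 20 genes of this list were tested. Of these, 14 were called lower and 0 higher, or 70% against 4.04% of all genes. Their median difference was -1.53, against 0.015 for all genes, and 95% lay below 0. The median was -1.60 between the 6 h arrays of slide 1 and -1.41 within slide 2. Those called were HLA-DOA, HLA-DRB5, HLA-DRB4, HLA-DRB3, HLA-DQA1, HLA-DQA2, HLA-DQB1, HLA-DRB1, HLA-DQB2, HLA-DMB, CIITA, CD74, HLA-DPB1 and HLA-DPA1.

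HLA-DOA, which with its partner chain restrains the loading of peptides onto class II molecules, had signals of 12.87, 13, 13.06 and 13.02 in LP-1-cIAP2-eGFP and of 15.52, 15.60, 15.82 and 15.63 in the control. Its difference was -2.66 (SE 0.0819, adjusted p = 2.28e-05), but a second, dimmer probe gave -0.82 and was not called. HLA-DRB5, a beta chain that presents peptides to helper T cells, gave 12.05, 12.13, 12.01 and 12.09 against 14.31, 14.26, 14.20 and 14.36, a difference of -2.22 (SE 0.0763, adjusted p = 3.24e-05). In both genes the 4 arrays of a line lay close together and far from those of the other line. The HLA-DRB genes are nearly identical in sequence, so that a probe named for one may also detect another, and LP-1 need not carry each of them.

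HLA-DQA1, the alpha chain of the DQ molecule, was at 14.08, 14.11, 14.08 and 14.18 in LP-1-cIAP2-eGFP and at 16, 16.09, 16.07 and 16.20 in the control, a difference of -1.98 (SE 0.0756, adjusted p = 4.46e-05). HLA-DRA, the alpha chain shared by all DR molecules, gave 14.22, 14.35, 14.18 and 14.17 against 15.20, 15.08, 15.17 and 15.19. Its groups did not overlap either, but its difference of -0.93 was less than 2-fold (SE 0.0805, adjusted p = 0.000879), so it was not called. CD74, the invariant chain that guides class II molecules through the cell, had 11.17, 11.51, 11.66 and 11.78 against 12.87, 12.71, 12.89 and 12.99, a difference of -1.34 (SE 0.112, adjusted p = 0.000771).

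CIITA, the co-activator on which these genes depend, had 11.20, 11.36, 11.61 and 11.80 in LP-1-cIAP2-eGFP and 12.61, 13.08, 13.21 and 13.12 in the control. The groups were apart, and the difference was -1.52 (SE 0.126, adjusted p = 0.000765). Its second probe gave -0.39 and was not called, and with the probes of a gene averaged CIITA no longer passed. Of 21 tested MHC class I and immunoproteasome genes, whose products supply peptides to killer T cells, 1 was called, NLRC5, or 4.8%, which is near the 4.04% of all genes called lower. NLRC5 is the co-activator of class I genes, and its difference was -1.19 (SE 0.162, adjusted p = 0.00524). Its second probe gave -0.72 and was not called, and the call was lost with normexp background correction and with the probes of a gene averaged. HLA-B (-0.43, adjusted p = 0.0125), B2M (-0.48, adjusted p = 0.0106) and PSMB9 (-0.48, adjusted p = 0.0104) were lower by less than 2-fold, and TAP1 gave -0.20 (adjusted p = 0.16).

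In a search of both strands of the 300 bases around each gene start, chosen after the class II genes were seen to be lower, TGATTGG occurred in 6 of the 11 promoters of called class II genes that the reference held, or 54.5%. Over all 27305 promoters the share was 7.3%, over the 12527 promoters of tested genes it was 9.2%, and over the 475 promoters of genes called lower it was 7.2%. AGNAAC, a shorter and less telling run, occurred in 8 of the 11, or 72.7%, in 38.7% of those of tested genes and in 42.9% of all promoters. Class II members that were tested held TGATTGG in 56.2% of 16 promoters, so the share among those called was close to that of their list. The 2 boxes are seen in order in the HLA-DRB5 and HLA-DOA promoters printed above.

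**Figure D2:**
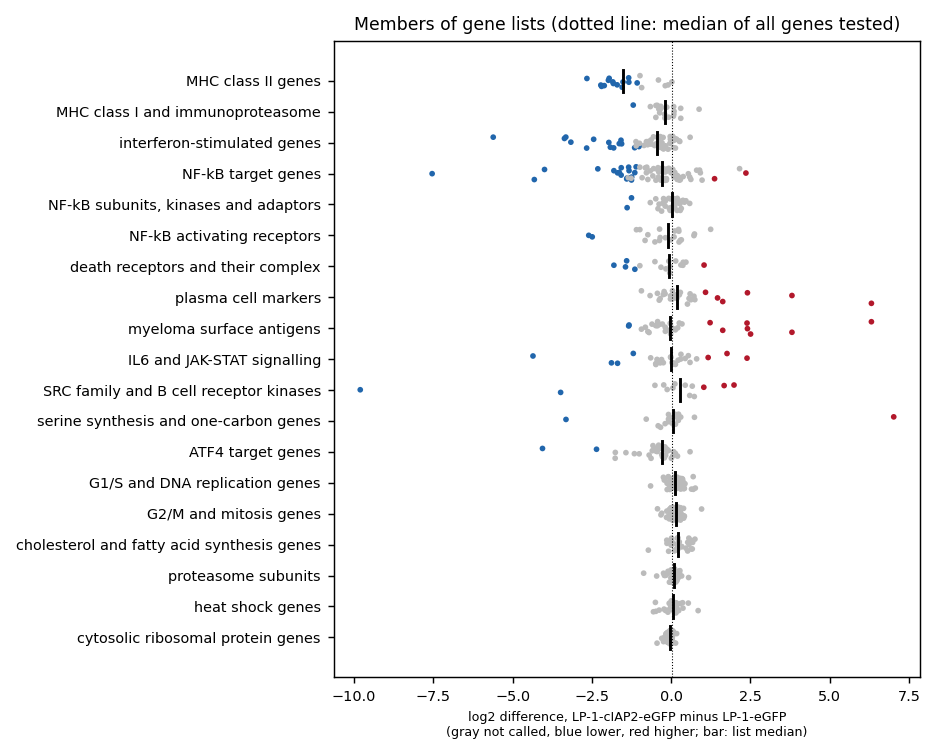
Each point is a tested gene of the named list, at its log2 difference between untreated LP-1-cIAP2-eGFP and control cells (blue lower, red higher, gray not called; black bar, median of the list; dotted line, median of all genes at 0.015). The MHC class II genes have the lowest median at -1.53, while the proteasome, heat shock, cell cycle and ribosomal lists hold no called gene.

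Some interferon-stimulated genes, which cells switch on against viruses, were lower as well, and none was called higher. Of 62 in the list, 57 were tested, 14 were called lower and 0 higher, or 24.6% against 4.04% of all genes. The median was -0.43, with 78.9% of the members below 0; it was -0.47 between the 6 h arrays of slide 1 and -0.40 within slide 2. When testing was limited to probes that all 8 arrays detected, 8 were called. That setting called 906 of 23328 probes in all, and the number of list members it tested is not given.

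ISG15, a ubiquitin-like protein attached to other proteins, had 10.02, 9.83, 9.91 and 9.97 in LP-1-cIAP2-eGFP and 12.30, 12.39, 12.13 and 12.68 in the control. The lines did not overlap, and the difference was -2.44 (SE 0.134, adjusted p = 0.000145). IFITM1, a membrane protein that hinders viral entry, had 7.52, 7.71, 8.46 and 8.39 against 10.91, 11.10, 11.18 and 11.53, a difference of -3.16 (SE 0.142, adjusted p = 7.47e-05), and its second probe gave -3.19.

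MX1, an antiviral GTPase, was measured on 3 LP-1-cIAP2-eGFP arrays at 5.96, 6.16 and 6.47, and its spot was dropped as an outlier on the remaining one. The control arrays gave 9.49, 9.37, 9.62 and 9.80, and the difference was -3.32 (SE 0.107, adjusted p = 7.35e-05). APOL6, an apolipoprotein L gene, had 7.93, 6.05, 6.44 and 5.96 against 11.98, 12.10, 12.80 and 11.95; 1 array of LP-1-cIAP2-eGFP stood above the other 3, but the lines did not overlap and the difference was -5.61 (SE 0.474, adjusted p = 0.000789). Other probes of APOL6 gave -5.14 and -1.91, of which 1 was called. RSAD2, whose product viperin blocks viral replication, was at least 3.17-fold lower. Other members did not move in this way, such as IFIT1 at 0.13 (adjusted p = 0.765) and OAS1 at -0.52 (adjusted p = 0.39).

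IRF1, the transcription factor that carries interferon-gamma signals to many of these genes and to CIITA, had 7.69, 8.07, 8.36 and 8.0 in LP-1-cIAP2-eGFP and 9.35, 9.31, 9.60 and 9.47 in the control. Its difference was -1.40 (SE 0.124, adjusted p = 0.000976). IRF8, a factor of B and myeloid cells, went the other way, with 8.13, 8.51, 8.56 and 8.54 against 7.06, 7.35, 7.38 and 7.76. Its groups did not overlap, and the difference of 1.04 was barely over 2-fold (SE 0.138, adjusted p = 0.00482); it passed no longer without any one of 3 arrays, with normexp background correction, with the authors' normalized values or with all 16 arrays fitted together. Over the alternatives that left out 1 array, the IRF8 difference was between 0.955 and 1.12.

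ISRE letters occurred in 8 of the 11 promoters of called interferon-stimulated genes in the reference, or 72.7%, in 63.6% of the 44 promoters of tested members, in 3.0% of those of all tested genes and in 3.6% of all promoters. Those of ISG15 and IFITM1 are printed above. Over the promoters of all genes called lower the share was 4.0%, and over those called higher it was 1.0%. GAS letters were in 7.2% and 3.5% of these, in 6.6% of those of tested genes and in 7.9% of all promoters.

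NF-κB target genes differed in both directions, and more of them were lower. Of 90 in the list 71 were tested, 17 were called lower and 2 higher, or 23.9% and 2.8% against 4.04% and 1.61% of all genes. Many of the lower members had already been named as down-regulated in the study, from the same arrays. The list was chosen with earlier results of these data known. Its excess of lower genes can therefore be partly built in, and the shares are a description. The median of the list was -0.28, and it was -0.18 between the 6 h arrays of slide 1 and -0.34 within slide 2. With testing limited to probes that all 8 arrays detected, 15 were called, where 906 of 23328 probes were called in all. The number of list members tested there is not given. The 2 higher genes were CCL4, a chemokine that draws in monocytes and T cells, and TNFAIP8, a regulator of cell death (1.37, SE 0.134, adjusted p = 0.00145). Several of the lower genes belong to other groups here too, ASS1, CD74, IRF1 and BIRC3 among them, so that the lists are not separate evidence. The κB consensus was found in 5 of the 13 promoters of called targets that were lower, or 38.5%, in 33.9% of the 56 promoters of tested targets, in 17.9% of all promoters of lower genes, in 14.1% of those of higher genes, in 12.9% of those of all tested genes and in 10.8% of all promoters. BIRC3 and IRF1 above are examples.

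In the pathway itself, 2 of 35 tested subunits, kinases and adaptors were called, both lower, and the median was 0.04. This share, 5.7%, is near the 4.04% of all genes. RELB, the subunit that the non-canonical pathway carries into the nucleus, had 14.53, 14.40, 14.65 and 14.52 in LP-1-cIAP2-eGFP and 15.68, 15.75, 15.95 and 15.71 in the control. Its difference was -1.25 with no overlap (SE 0.0896, adjusted p = 0.000423). BCL3, a nuclear protein of the IκB family that works with p50 and p52, had 12.67, 12.89, 13.30 and 13.43 against 14.20, 14.38, 14.71 and 14.56, a difference of -1.39 (SE 0.105, adjusted p = 0.000528).

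NFKB1, which encodes p105 and p50, was higher by less than 2-fold, with 12.06, 12.16, 11.98 and 11.98 against 11.44, 11.67, 11.25 and 11.47 (0.59, SE 0.0935, adjusted p = 0.00973). NFKBIA, the inhibitor of the canonical pathway and one of its fastest targets, overlapped between the lines, at 12.65, 12.52, 12.54 and 12.39 against 12.84, 12.57, 12.93 and 12.51 (-0.18, SE 0.126, adjusted p = 0.407). MAP3K14, the kinase NIK, gave 0.32 (SE 0.0902, adjusted p = 0.0672), and TRAF3 gave -0.38 (SE 0.282, adjusted p = 0.451) with a spread from 6.45 to 7.76 in LP-1-cIAP2-eGFP. RELA at 0.04 (adjusted p = 0.805), IKBKB at 0.11 (adjusted p = 0.492), CHUK at 0.19 (adjusted p = 0.143), TNFAIP3 at -0.07 (adjusted p = 0.741) and BIRC2, the gene of cIAP1, at -0.15 (adjusted p = 0.391) did not pass. TRAF2, which recruits the cIAPs to TRAF3, was at -0.66 (SE 0.101, adjusted p = 0.00869), under 2-fold.

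Of the receptors that feed into NF-κB, 22 of 32 were tested and 2 were called, both lower, or 9.1% against 4.04% of all genes. TNFRSF11A, the receptor RANK, had 5.02, 6.12, 7.36 and 6.86 in LP-1-cIAP2-eGFP and 8.40, 8.67, 8.89 and 9.33 in the control, a difference of -2.49 (SE 0.325, adjusted p = 0.00459). Its spread in LP-1-cIAP2-eGFP was wide, but the groups did not overlap; the call was lost when all 16 arrays were fitted together. TNFRSF18, the receptor GITR, gave -2.6 (SE 0.261, adjusted p = 0.00159) and was above background on 2 arrays of LP-1-cIAP2-eGFP. TNFRSF1B, the second TNF receptor, overlapped and did not pass (-1.09, SE 0.357, adjusted p = 0.102), nor did CD40, at -0.73 (SE 0.187, adjusted p = 0.0493), which was under 2-fold.

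Among genes that govern cell death, 4 of 17 tested members of the death receptor group were lower, or 23.5% against 4.04% of all genes, and 1 was higher, or 5.9% against 1.61%, with a median of -0.07. FAS, the death receptor, had 11.02, 10.87, 11.24 and 10.89 in LP-1-cIAP2-eGFP and 12.78, 12.75, 12.91 and 12.79 in the control. Its difference was -1.80 (SE 0.104, adjusted p = 0.00017), and its other probes gave -1.92 and -1.79. The decoy receptors TNFRSF10C (-1.40, SE 0.166, adjusted p = 0.00314) and TNFRSF10D (-1.44, SE 0.137, adjusted p = 0.00128) and the death receptor TNFRSF25 (-1.14, SE 0.166, adjusted p = 0.00695) were lower too. CASP10, an initiator caspase, was higher (1.04, SE 0.135, adjusted p = 0.00453). Its other probes gave 0.29 and 1.29, of which 1 was called. CASP8 (-0.04), CASP9 (0.04) and FADD (-0.03) did not pass.

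BCL2L1, which encodes the survival protein BCL-XL, had 9.87, 9.85, 10.05 and 9.89 in LP-1-cIAP2-eGFP and 10.94, 10.89, 11.11 and 11.13 in the control. It was the only one of 6 tested survival members of the BCL2 family that was called (-1.10, SE 0.0755, adjusted p = 0.000355), or 16.7% against 4.04% of all genes. MCL1, on which myeloma cells depend, gave -0.50 (SE 0.147, adjusted p = 0.0787), BCL2 -0.12 (adjusted p = 0.629) and BCL2A1 -0.13 (adjusted p = 0.511). Among 13 tested BH3-only and effector members 1 was called, BIK, a sensitizer at the endoplasmic reticulum (-2.32, SE 0.216, adjusted p = 0.00117), which is 7.7%. The inhibitor of apoptosis family had 10 tested members with 2 called lower, BIRC3 and XAF1, or 20%. XAF1 is an antagonist of XIAP that interferon induces (-1.56, SE 0.255, adjusted p = 0.0107). A second XAF1 probe gave -0.91 and was not called. XIAP itself gave 0.15 (adjusted p = 0.358).

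Some genes with very large differences, FGR and EMC10 among them, are in none of the lists above, whereas ASS1 is also in the NF-κB target list. FGR, a SRC family tyrosine kinase of blood cells, had 4.20, 4.17, 4.12 and 4.11 in LP-1-cIAP2-eGFP, none of them above background, and 13.91, 13.69, 14.23 and 13.97 in the control. It was at least 544-fold lower (adjusted p = 1.19e-06). ASS1, which joins citrulline and aspartate in the making of arginine, was at 2.76, 2.67, 4.20 and 4.67 against 11.14, 10.97, 11.49 and 10.84, at least 72.9-fold lower (adjusted p = 8.93e-05), and its other probe gave -4.79. No LP-1-cIAP2-eGFP array had a detectable signal for either gene.

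EMC10, a subunit of the complex that inserts proteins into the membrane of the endoplasmic reticulum, had 13.06, 13.10, 13.03 and 13.06 in LP-1-cIAP2-eGFP and 3.07, 5.52, 6.04 and 3.35 in the control, where 2 of the 4 arrays were above background. The difference was 8.57 (SE 0.719, adjusted p = 0.000772), but a second probe of the gene gave only 1.49, and the other 9 tested subunits of the complex were not called. EVI2A and EVI2B, a pair of small genes that lie together within an intron of NF1, were both higher. EVI2A had 11.91, 11.85, 11.99 and 11.92 against 4.84, 5.57, 6.48 and 5.15 (6.41, SE 0.32, adjusted p = 0.000104). EVI2B had 8.83, 9.03, 9.38 and 9.28 against 2.63, 2.80, 2.71 and 2.66 and was at least 26.8-fold higher (adjusted p = 5.35e-06).

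RBM47, an RNA-binding protein of splicing and editing, was at 12.75, 12.73, 12.68 and 12.52 against 6.82, 6.36, 5.94 and 6.61 (6.24, SE 0.178, adjusted p = 1.78e-05), and its other probe gave 2.72. SPP1, the secreted bone matrix protein osteopontin, had 11.71, 11.79, 11.48 and 11.42 against 6.15, 6.32, 5.70 and 6.30 (5.49, SE 0.14, adjusted p = 1.4e-05). All 8 arrays detected both genes, and the lines were far apart. P2RY6, a receptor of uridine nucleotides, was also higher (4.0, SE 0.114, adjusted p = 1.78e-05). Among the other genes with large differences were STRA6, the retinol transporter (at least 20.6-fold lower, adjusted p = 1.78e-05), and the selenium carrier SELENOP (-5.40, SE 0.453, adjusted p = 0.000771).

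**Figure D3:**
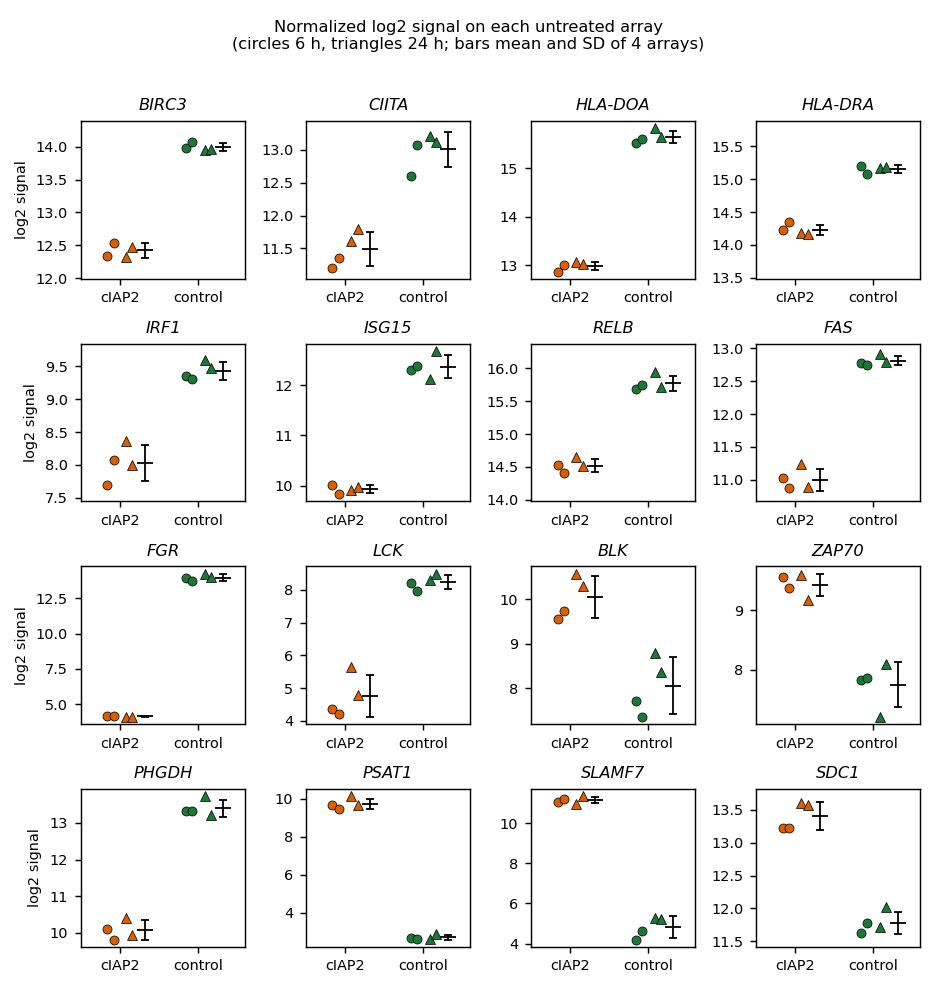
Normalized log2 signal of 16 genes on each untreated array (circles 6 h, triangles 24 h), LP-1-cIAP2-eGFP on the left and control on the right of each panel, with bars for the mean and SD of 4 arrays; each panel has its own y axis. In every panel the 4 arrays of one line lie apart from the 4 of the other, from 13.69 to 14.23 against 4.11 to 4.20 for FGR and from 15.08 to 15.20 against 14.17 to 14.35 for HLA-DRA.

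FGR was not the only SRC family or antigen receptor kinase to differ, and members went both ways. Of 14 tested from this group 3 were higher and 2 lower, or 21.4% and 14.3% against 1.61% and 4.04% of all genes. LCK, the kinase that starts T cell receptor signalling, had 4.37, 4.21, 5.64 and 4.80 in LP-1-cIAP2-eGFP, where 1 array was above background, and 8.20, 7.97, 8.30 and 8.50 in the control (-3.48, SE 0.224, adjusted p = 0.000274). The size is not exact, and a second LCK probe gave -0.75 and was not called. BLK, a kinase of the B lineage, had 9.57, 9.74, 10.58 and 10.30 against 7.72, 7.36, 8.79 and 8.38 (1.98, SE 0.149, adjusted p = 0.000511). Its signal was higher at 24 h than at 6 h in both lines, and the lines did not overlap.

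ZAP70, a kinase that T cells use and some malignant B cells express, had 9.55, 9.37, 9.59 and 9.17 against 7.83, 7.86, 7.21 and 8.10 (1.67, SE 0.207, adjusted p = 0.00372). PTPN6, the phosphatase SHP-1 that dampens such kinases, just passed (1.03, SE 0.258, adjusted p = 0.0462), and it was not called with the slide as a block. LYN, the main SRC kinase of B cells, was 0.67 higher, under 2-fold (SE 0.0746, adjusted p = 0.00245), and BTK did not pass.

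Interleukin and JAK-STAT genes also differed in both directions, with 3 higher and 4 lower of 30 tested, or 10% and 13.3% against 1.61% and 4.04% of all genes, and a median of 0.008. JAK3, the kinase of the common gamma chain receptors, had 11.65, 11.67, 11.33 and 11.40 in LP-1-cIAP2-eGFP and 13.50, 13.74, 13.20 and 13.12 in the control (-1.88, SE 0.0887, adjusted p = 8.72e-05). IL6R, the receptor of the growth factor interleukin 6, had 9.62, 9.86, 10.37 and 10.72 against 7.13, 6.94, 8.28 and 8.63 (2.4, SE 0.178, adjusted p = 0.000494). IL6ST, the chain that signals for it, gave -0.48 (SE 0.138, adjusted p = 0.0694). IL6R was higher at 24 h than at 6 h in both lines.

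STAT4, a signal transducer of interleukin 12, was at 10.92, 11.08, 10.98 and 11 against 8.93, 9.28, 9.33 and 9.38 (1.76, SE 0.111, adjusted p = 0.000255). STAT3, which interleukin 6 activates, was at 7.82, 7.81, 7.88 and 7.49 against 8.95, 8.99, 8.84 and 8.99 (-1.19, SE 0.106, adjusted p = 0.000976), though it did not pass with normexp background correction or with all 16 arrays fitted together. The feedback inhibitor SOCS1 had 5.78, 6.43, 6.65 and 6.11 against 8.03, 8.16, 7.52 and 8.0 (-1.69, SE 0.235, adjusted p = 0.00589). SOCS3, a second one, was uneven in LP-1-cIAP2-eGFP, at 6.37, 2.46, 2.97 and 2.47 against 7.65, 7.34, 8.55 and 8.14, and above background there on the first array only. Its difference of -4.36 (SE 0.924, adjusted p = 0.0269) lost the call with no filter on dim probes and when any of 7 arrays was left out, and with each array left out it was between -5.50 and -3.86.

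Plasma cell markers checked the labelled cell type. All 10 defining markers were tested, and 9 of them were above background on all arrays of both lines; the exception was SLAMF7, which only 2 of the 4 control arrays detected. The brightest probe was that of XBP1, the factor of secretory cells, which does not rank the genes, and the log2 of the summed signal of the 10 probes lay between 18.89 and 19.21 on the 8 arrays. XBP1 (-0.22, adjusted p = 0.124), IRF4 (0.26, adjusted p = 0.28), PRDM1 (0.18, adjusted p = 0.434), CD38 (-0.43, adjusted p = 0.0755) and TNFRSF17, the receptor BCMA (0.09, adjusted p = 0.637), did not pass, while SLAMF7 and SDC1 were called higher. In the longer list of 30, 6 were higher and 0 lower, or 20% against 1.61% of all genes, with a median of 0.18. They were SLAMF7, GPRC5D, CD28, SDC1, IGF1 and CADM1, of which SLAMF7 and SDC1 are also among the 10 defining markers.

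SLAMF7, a SLAM family receptor and the target of the antibody elotuzumab, had 11.08, 11.21, 10.96 and 11.34 in LP-1-cIAP2-eGFP and 4.20, 4.61, 5.29 and 5.24 in the control, where 2 arrays were above background (6.32, SE 0.212, adjusted p = 3.1e-05). GPRC5D, an orphan receptor of plasma cells, had 10.25, 10.32, 10.74 and 10.58 against 5.98, 6.53, 6.89 and 7.25 (3.81, SE 0.171, adjusted p = 7.47e-05). SDC1, the heparan sulfate proteoglycan CD138, had 13.23, 13.23, 13.61 and 13.57 against 11.62, 11.77, 11.71 and 12.02 (1.63, SE 0.101, adjusted p = 0.000238). In none of these did any control array reach the lowest LP-1-cIAP2-eGFP array.

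CD28, a co-stimulatory receptor that some myeloma cells gain, had 9.05, 9.02, 8.86 and 8.39 against 6.38, 6.13, 6.50 and 6.68 (2.41, SE 0.193, adjusted p = 0.000658). CADM1, an adhesion molecule, had 13.82, 13.79, 14.15 and 13.92 against 12.74, 12.68, 13.02 and 12.88 (1.09, SE 0.0849, adjusted p = 0.00059). IGF1, a growth factor of myeloma cells, had 8.49, 8.39, 8.03 and 8.01 against 6.49, 6.77, 7.06 and 6.74 (1.46, SE 0.173, adjusted p = 0.0031), while its receptor IGF1R gave -0.04 (adjusted p = 0.887). IGF2BP3, an RNA-binding protein that stabilizes growth factor messages, was lower, at 10.81, 10.47, 10.96 and 10.69 against 14.04, 13.92, 14.23 and 13.84 (-3.28, SE 0.136, adjusted p = 5.69e-05).

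CD48, the ligand of another SLAM receptor, had 12.03, 11.98, 11.66 and 11.97 against 10.13, 10.75, 10.53 and 11.32 (1.23, SE 0.253, adjusted p = 0.0241). Its groups did not overlap, but the control arrays were spread, and the call was lost with the slide as a block and when any of 6 arrays was left out. Of the 30 tested myeloma surface antigens 7 were higher, or 23.3% against 1.61% of all genes, and 2 lower, or 6.7%, which is near the 4.04% of all genes. The lower ones were CD74, described above, and ICAM1, the adhesion ligand of LFA-1, at 11.42, 11.34, 11.29 and 11.32 against 12.56, 12.48, 12.98 and 12.66 (-1.33, SE 0.118, adjusted p = 0.000976). The adhesion chains CD44 (0.90, SE 0.0901, adjusted p = 0.00158) and ITGA4 (0.75, SE 0.0839, adjusted p = 0.00248) were higher by less than 2-fold.

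Several defining markers of other cell types were not tested, because their probes did not pass the signal filter. Among them were the B cell factor PAX5 and MS4A1 (CD20), NKG7 of NK cells, CSF1R and MPO of myeloid cells, and the epithelial gene EPCAM. None of the 5 tested T and NK cell markers and none of the 3 tested myeloid markers was called, and the log2 of the summed signal of these lists was between 7.49 and 8.90 and between 8.22 and 8.88, with the probes of CD2 and CD33 the brightest. The longer lists did hold called genes. Of 16 tested T and NK cell genes 2 were lower, LCK and the cytotoxic granule protein GNLY (-2.24, SE 0.192, adjusted p = 0.000829), and 1 was higher, ZAP70, or 12.5% and 6.2% against 4.04% and 1.61% of all genes. Of 16 tested myeloid genes 3 were lower, or 18.8%, and 0 higher. They were the integrin chains ITGAX (-4.00, SE 0.332, adjusted p = 0.000751) and ITGAM (-1.93, SE 0.181, adjusted p = 0.00121) and the factor CEBPA (-2.27, SE 0.188, adjusted p = 0.000744), with ITGAX above background on 1 array and ITGAM on 2 arrays of LP-1-cIAP2-eGFP and on all control arrays. The sizes for ITGAX and ITGAM are therefore not exact. The part of other cells in these differences was not tested. BCL6, a germinal centre repressor, was the only one of 4 tested B cell markers called (-1.89, SE 0.181, adjusted p = 0.00129), and 1 of the 4 LP-1-cIAP2-eGFP arrays detected it, so the size is not exact. Of 20 tested genes in the longer B cell list, 2 were higher, BLK and IRF8, and 2 lower, BCL6 and CIITA. That is 10% in each direction, against 1.61% higher and 4.04% lower over all genes. FGFR3 and NSD2, the genes joined to the immunoglobulin locus in a subset of myelomas, were present in both lines and not called (0.86, SE 0.0788, adjusted p = 0.0011, and -0.13, adjusted p = 0.399).

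In serine and arginine metabolism a few enzymes differed strongly. PSAT1, the second enzyme of serine synthesis, had 9.66, 9.44, 10.12 and 9.66 in LP-1-cIAP2-eGFP and 2.68, 2.61, 2.63 and 2.87 in the control, none of them above background, and was at least 40.4-fold higher (adjusted p = 5.45e-06). Its other probe gave 2.32. PHGDH, the first enzyme of the pathway, went the opposite way, at 10.12, 9.82, 10.42 and 9.95 against 13.33, 13.31, 13.72 and 13.21 (-3.32, SE 0.163, adjusted p = 9.71e-05). PSPH, the last enzyme, overlapped between the lines, at 12.91, 13.02, 13.46 and 13.20 against 13.14, 13.39, 14.20 and 13.20 (-0.33, SE 0.218, adjusted p = 0.39).

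These were the only 2 of 20 tested genes of serine and one-carbon metabolism that were called, or 5% in each direction against 1.61% higher and 4.04% lower over all genes, and SHMT2 gave -0.03 (adjusted p = 0.917). SDSL, a relative of the serine dehydratase that breaks serine down, had 8.76, 8.78, 8.53 and 8.68 against 13.51, 13.68, 13.42 and 13.47 (-4.83, SE 0.0799, adjusted p = 3.28e-06). Of 16 tested arginine and urea genes 2 were lower, or 12.5%, ASS1 and CPS1, the carbamoyl phosphate synthetase (-1.16, SE 0.109, adjusted p = 0.00119), whereas ASL, the enzyme after ASS1, gave 0.46 (SE 0.0774, adjusted p = 0.0117). ATF4, which drives amino acid synthesis genes, did not pass (-0.14, adjusted p = 0.483). Its 35 tested targets had a median of -0.30, with 82.9% below 0, but 2 were called, both lower, NUPR1 and VLDLR, or 5.7%, which is near the 4.04% of all genes. With the slide as a block the VLDLR call was lost, and a second VLDLR probe gave -0.28 and was not called.

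NUPR1, a small stress protein of chromatin, was measured on 3 LP-1-cIAP2-eGFP arrays, at 4.97, 4.86 and 6.60, and only 1 of these was above background. The control gave 9.18, 9.05, 11.05 and 9.82, and the difference was -4.06 (SE 0.307, adjusted p = 0.00117), a size that is not exact. Polycomb genes, which hold developmental genes silent, had 2 called of 25 tested, both lower, or 8% against 4.04% of all genes. CBX2, a subunit that reads methylated histone H3, had 5.51, 6.18, 6.92 and 6.50 against 12.27, 12.56, 12.45 and 12.54 (-6.18, SE 0.234, adjusted p = 4.46e-05), but a second probe gave 0.19 and was not called. AEBP2, a cofactor of the methylating complex, had 3.36, 3.32, 2.69 and 2.97 against 6.43, 6.42, 6.10 and 6.43 and was at least 3.03-fold lower (adjusted p = 4.74e-05). EZH2, the methyltransferase, gave 0.30 (adjusted p = 0.0432), under 2-fold.

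Large groups of housekeeping and stress genes held no called member. None of 41 proteasome subunits, 29 heat shock genes, 33 autophagy genes, 51 genes of the start of S phase and DNA replication, 53 of mitosis, 34 of cholesterol and fatty acid synthesis, or 75 cytosolic ribosomal protein genes passed, where 1.61% higher and 4.04% lower is the share over all genes. Their medians lay between -0.07 for autophagy and 0.21 for cholesterol synthesis. In the cholesterol list 17.6% of members lay below 0, against 48.1% of all genes. The share was also low for mitosis (24.5%), S phase and replication (25.5%), proteasome (29.3%) and heat shock genes (37.9%). For autophagy (57.6%) and ribosomal protein genes (65.3%) it was above that of all genes. CCNE1, which drives cells into S phase, was 0.64 higher (SE 0.0961, adjusted p = 0.00769) and E2F1 lower at -0.65 (SE 0.086, adjusted p = 0.0049), both less than 2-fold. MKI67, the proliferation marker, did not pass (0.21, adjusted p = 0.458).

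CDKN1C, an inhibitor of the cyclin-dependent kinases, was higher, at 13.81, 13.49, 13.68 and 13.69 against 12.75, 12.28, 12.57 and 12.46 (1.15, SE 0.13, adjusted p = 0.00253). CDKN1A, the p53 target p21, had 5.19, 5.40, 6.56 and 6.09 against 3.67, 3.16, 4.92 and 4.58 (1.73, SE 0.181, adjusted p = 0.00189), but was above background on 3 of the 8 arrays only and was not called with normexp background correction. Of the unfolded protein response and folding genes of the endoplasmic reticulum, 47 were tested and EMC10 alone was called. This is 2.1%, which is near the 1.61% of all genes called higher. PSMB5, the proteasome subunit that bortezomib binds, gave -0.21 (SE 0.102, adjusted p = 0.242).

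In some stretches of the genome, neighbouring genes shared a small shift. Tested genes of the autosomes were put in the order of the RefSeq annotation and cut into 613 runs of 25, with 15325 genes. The medians of these runs lay between -0.593 and 0.361, with 11 below -0.5 and 0 above 0.5. In 4 stretches at least 5 consecutive runs had a median below -0.15, a limit set after the medians were seen. One covered all 26 runs of an autosome, from WASHC1 to RNF224, with 650 genes, a median of -0.41 and 80.9% of genes below 0. The others were SH3YL1 to PUS10 with 250 genes (median -0.43), LINC02245 to MRPS5 with 150 genes (-0.26) and MDM4 to OR2W3 with 225 genes (-0.30). The remaining 14339 genes had a median of 0.04.

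**Figure D4:**
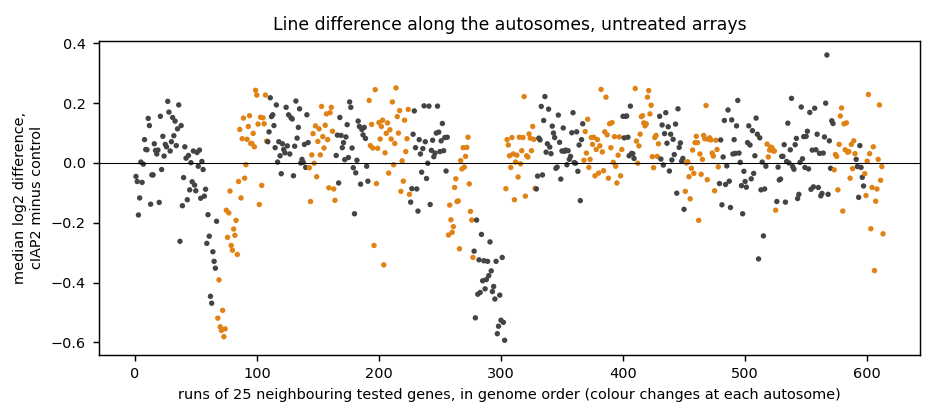
Each point is a run of 25 neighbouring tested genes, in genome order on the x axis with a change of colour at each autosome, at its median log2 difference between untreated LP-1-cIAP2-eGFP and control cells on the y axis. A whole autosome (runs from WASHC1 to RNF224) and 3 further stretches lie below -0.15, down to -0.593, and shorter groups of neighbouring runs outside them lie below 0 as well.

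The untreated arrays chose the stretches, so their values on these arrays are a description. Between the 6 h arrays of slide 1 the medians of the stretches in the order just given were -0.48, -0.48, -0.31 and -0.34, and between those of slide 2 they were -0.40, -0.47, -0.23 and -0.27. On the bortezomib arrays they were -0.53, -0.55, -0.31 and -0.44. The stretches held 8.17% of the autosomal genes, 17.1% of those called lower and 1.6% of those called higher, an imbalance that their choice by low medians brings with it. Of the genes described above, ASS1 and PSAT1 lie in the stretch from WASHC1 to RNF224, as do TRAF2 and VLDLR, SDC1 and RSAD2 lie in that from SH3YL1 to PUS10, and GNLY lies in that from LINC02245 to MRPS5. SDC1 and PSAT1 were thus higher among neighbours that were mostly lower. No MHC class II gene lies in a stretch. DNA copy number was not measured here, and its part in these shifts was not tested.

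Few probes had a line difference that depended on the time of sampling. Of 33136 probes tested for such a dependence 3 passed an adjusted p of 0.05, or 0.00905%, while 1483 had an unadjusted p under 0.05. The only one with a symbol was DGAT2L6, an acyltransferase gene, with 7.21 and 6.99 at 6 h and 2.55 and 2.47 at 24 h in LP-1-cIAP2-eGFP and 2.49 to 2.53 in the control (adjusted p = 0.0102 for the change). It was above background on 2 arrays of LP-1-cIAP2-eGFP and on none of the control, so the size of the change is not known. None of the 3 probes passed with the slide as a block, with normexp background correction, with probes detected on all 8 arrays or within slide 2. Some genes were higher at 24 h than at 6 h in both lines, as seen for BLK and IL6R.

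The 8 bortezomib arrays gave the same comparison on arrays not used so far, though from the same 2 populations. All 4 LP-1-cIAP2-eGFP arrays were on slide 1 and 3 of the 4 control arrays were on slide 2, so that line and slide can hardly be told apart there. One array, LP-1-cIAP2-eGFP replicate 1 at 24 h, was dim, with a median log2 signal of 3.18 and 35.5% of gene spots well above background. On the other 7 these ran from 5.73 to 6.64 and from 49.0% to 68.8%. Of 29089 probes tested there, 708 were called between the lines, or 2.43%. From the 1500 probes called in untreated cells 1321 could be tested, and 1286 of them, or 97.4%, had the same direction, against 68.2% of all probes. The call itself was repeated for 565 of the 1321. Other settings make their own calls in untreated cells, of which 46 of 1198 were repeated with the slide as a block, 274 of 425 with probes detected on all 8 arrays, 358 of 1413 with no filter and 968 of 1460 with array weights. With 1 bortezomib array left out the number repeated of the 1321 was lowest, at 222, without control replicate 1 at 6 h and highest, at 738, without LP-1-cIAP2-eGFP replicate 1 at 24 h. Without the other control arrays it was 252 for replicate 2 at 6 h, 356 for replicate 1 at 24 h and 293 for replicate 2 at 24 h, and without replicates 1 and 2 of LP-1-cIAP2-eGFP at 6 h it was 298 and 303. The median difference there was 1.05 for the probes that were higher in untreated cells and -1.53 for those that were lower. By gene, 616 of 626 lower and 219 of 227 higher genes had the same direction.

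Among the described genes HLA-DOA (-2.62, adjusted p = 0.000757), PHGDH (-3.20, adjusted p = 0.000626) and FAS (-1.81, adjusted p = 0.00125) were close to their untreated values. FGR (-7.84, adjusted p = 0.00032), EMC10 (8.68, adjusted p = 0.000285) and PSAT1 (6.70, adjusted p = 0.000285) were called there too, but in untreated cells some or all arrays of one line did not detect them, so their sizes are not compared. BIRC3 was at -0.76 (adjusted p = 0.117), RELB at -0.95 (adjusted p = 0.0117), SDC1 at 1.20 (adjusted p = 0.123) and GPRC5D at 1.81 (adjusted p = 0.238), so none of these 4 was called there. The median of the MHC class II list was -1.60 on these arrays, that of the interferon-stimulated genes -0.46 and that of the NF-κB targets -0.42, against -0.05 for all genes. Plasma cell markers had a median of 0.47.

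**Figure D5:**
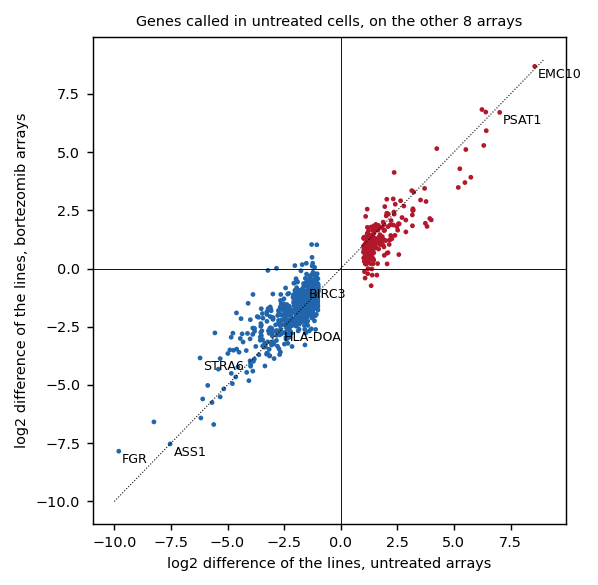
Each of 853 genes called in untreated cells is drawn at its log2 difference (LP-1-cIAP2-eGFP minus control) on the untreated arrays, x axis, and on the separate bortezomib arrays, y axis; the dotted line marks equal values, blue genes were lower and red genes higher in untreated cells. In 835 genes both differences have the same sign, and BIRC3 lies nearer to 0 on the bortezomib arrays.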

How the data were processed

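The untreated arrays of both lines, 4 each, were analysed. Per the file headers, the deposited scanner intensity values are background-subtracted signals of Agilent Feature Extraction 10.7.3.1, not normalized between arrays. Log2 values that the authors also deposited had been quantile normalized in GeneSpring, as the study's methods state, with each probe centred on its median over the 16 arrays; they served as an alternative. Outlier spots were dropped, log2 signals of repeated spots were averaged, and quantile normalization was run over the 8 arrays. A probe was tested if at least 1 of the 4 conditions had it well above background on both arrays (limma 3.58.1 in R 4.3.3, lmFit and eBayes, line and time as terms). The script was tested on simulated data.

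A call needed a more than 2-fold difference with an adjusted p under 0.05 (Benjamini-Hochberg). Gene names were matched by RefSeq accession, and each gene is its tested probe with the highest mean signal. The number of arrays limits the precision, and p-values measure only the spread between these samples. Replicate numbers do not pair the arrays. The time dependence was tested as an interaction of line and time, and the bortezomib arrays were normalized and fitted by themselves. Gene lists are described by counts and medians, with no test of the list.

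The members, the gene lists and the rule for naming genes were chosen with earlier results of these data known. The rule names BIRC3, the largest differences in each direction, measured and as bounds, key and leading members of each list, the smallest p-values for time, and genes at the ends of neighbouring runs. TNFAIP8 and some members given only by name lie outside the rule and were chosen after their values were seen. The alternatives were other scalings, background corrections, filters, blocks, thresholds and samples. A few genes of these pathways are not reported here.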

Additional observations from a re-analysis of the deposited data

Results flagged for a closer look

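Among the 72 genes described, 144 groups of 4 arrays were examined for an array apart from the other 3, and 7 had one (4.86%); chance alone marks about 1 group in 20. The gap to the nearest array is given in brackets as a share of the group's range. AEBP2 in LP-1-eGFP had a lowest array at 6.10 below 6.42, 6.43 and 6.43 (0.952). In LP-1-cIAP2-eGFP the lowest array stood apart for IRF8 at 8.13 below 8.51, 8.54 and 8.56 (0.883), for MAP3K14 at 11.52 below 11.68, 11.70 and 11.70 (0.873), for CD48 at 11.66 below 11.97, 11.98 and 12.03 (0.84) and for STAT3 at 7.49 below 7.81, 7.82 and 7.88 (0.837). SOCS3 in LP-1-cIAP2-eGFP had a highest array at 6.37 above 2.46, 2.47 and 2.97 (0.868); its call and that of CD48 were lost when most single arrays were left out. CCL3, a chemokine, had a highest LP-1-eGFP array at 12.31 above 10.28, 10.42 and 10.61 (0.837), and its line difference of 2.16 did not pass (SE 0.666, adjusted p = 0.0873). DGAT2L6 differed between the times, with a change of -4.56 in the line difference between 6 h and 24 h by the interaction test (adjusted p = 0.0102), but only 2 of the 8 arrays detected it, so this size is not exact. With the slide as a block no probe passed this test.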

How the results depend on the processing

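The line difference, 1500 probes, was 839 with normexp background correction, 906 with probes well above background on all 8 arrays, 122 within slide 2, 510 at an adjusted p under 0.001 and 4391 with no limit on the fold, and 1219 to 1628 with each array left out. With the probes of a gene averaged 945 of 16220 genes were called, against 916 by the brightest probe. The dependence on time, 3 probes, became 0 with normexp, with the filter on all 8 arrays, with the slide as a block and within slide 2, and 5 with the deposited values; it was 0 to 6 with each array left out. Calls repeated on the bortezomib arrays were 565 of 1321, and, of each setting's own testable calls, 358 of 1413 with no filter, 274 of 425 with the filter on all 8 arrays, 46 of 1198 with the slide as a block and 968 of 1460 with array weights; they were 222 to 738 of 1321 with each array left out. BIRC3 was -1.47 within slide 2, no longer past the threshold, and -1.61 to -1.53 with each array left out. None of the results reversed. The fewer calls within slide 2 go with its 5 arrays, and stricter filters test fewer probes; the other causes were not tested.

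With the replicate number as a block, 1488 probes were called, 1431 of them the same. The numbers name cultures only, since the replicate differences of the conditions correlated at -0.007 to 0.134. For the genes described that were called, 1039 of 1106 alternative values kept direction and side of the threshold, and within slide 2 the call was lost for 39 of 56. Over all genes described 0 values reversed. The median of all probes, -0.001, lay between -0.025 and 0.026 under the alternatives. The share of calls that were higher was 27.2%, but 19.7% within slide 2 and 39.5% with no limit on the fold. Dim probes limit the folds given as bounds, and 2 slides share the lines unevenly.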

Other observations

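Metallothioneins, which bind zinc and copper, had 3 of 11 tested members higher, or 27.3% against 1.61% of all genes, and 0 lower. MT2A, the most widely expressed of them, had 13.59, 13.73, 13.89 and 14.14 in LP-1-cIAP2-eGFP and 12.14, 12.49, 12.30 and 12.74 in the control (1.42, SE 0.143, adjusted p = 0.00159), with no overlap. MT1B (1.17, adjusted p = 0.0094) and MT1E (1.12, adjusted p = 0.0185) were the others, though a second MT1E probe gave 0.36 and was not called. The median of the list was 0.24, its lowest member, at -2.93, was not called, and probes of this family can share sequence. The S100 calcium-binding proteins went both ways, with 2 higher and 3 lower of 16 tested, or 12.5% and 18.8% against 1.61% and 4.04% of all genes. S100A6 was at 8.60, 8.81, 8.70 and 8.97 against 11.18, 10.97, 11.04 and 11.14 (-2.31, SE 0.106, adjusted p = 7.88e-05), and S100A11 at 14.23, 14.36, 14.47 and 14.59 against 12.29, 12.90, 13.22 and 13.43 (1.45, SE 0.175, adjusted p = 0.00335).

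Among chemokines, CCL4 was higher, at 8.96, 8.31, 8.50 and 7.12 against 5.49, 6.03, 6.25 and 5.68 (2.36, SE 0.397, adjusted p = 0.0119), and CCL5 lower (-1.69, SE 0.38, adjusted p = 0.0328). JUN, a subunit of AP-1, was at 12.11, 10.92, 10.61 and 10.88 against 9.76, 9.43, 9.44 and 8.95 (1.74, SE 0.283, adjusted p = 0.0107), while JUNB was lower (-1.13, SE 0.18, adjusted p = 0.00976). UBD, a ubiquitin-like protein that TNF and interferon-gamma induce, was at 6.16, 6.55, 6.07 and 5.58 against 10.91, 10.12, 10.16 and 9.64 (-4.12, SE 0.231, adjusted p = 0.000157). Transcription factors of the RUNX, ETS and KLF families had 1 called higher, FLI1 (1.87, SE 0.148, adjusted p = 0.000604), and 4 lower of 22 tested, or 4.5% and 18.2% against the same shares, among them RUNX1 (-1.48, SE 0.148, adjusted p = 0.00158) and ETS2 (-1.60, SE 0.198, adjusted p = 0.00378). Other RUNX1 probes gave -1.20 and -0.15, of which 1 was called. NECTIN2, a ligand by which NK cells recognize tumour cells, was lower (-2.66, SE 0.134, adjusted p = 0.000107).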
